A study of Mus musculus with 6 samples.

Results

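The genes of mitosis studied here are 48 mouse genes that encode the spindle checkpoint, the kinetochore, the kinases and cyclins that drive cells through M phase, mitotic kinesins, spindle and cytokinesis proteins, the chromosomal passenger complex, condensin, and the proliferation marker Mki67. They were taken by gene symbol in the array's probe annotation, with the brightest probe set that carries 1 symbol standing for each gene. Of the 48 genes 47 were measured, out of 19937 genes in all, and Ccnb1 had no such probe set and is not analysed here. The study asks how the transcriptional repressor Bcl6 acts on Notch signalling in fetal thymocytes, and its 6 one-colour Affymetrix arrays measured RNA of Thy1.2+ cells from E17.5 fetal thymi of Rag1-/- mice.

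Each group held 2 arrays. The fresh group was cells taken at 0 h, without stimulation. The DMSO group was cells from thymi stimulated for 40 h with anti-CD3 in the vehicle DMSO. The 79-6 group was cells stimulated for 40 h with anti-CD3 and 50 µM 79-6, a small molecule that binds the BTB domain of Bcl6. All 3 groups carry the Rag1 deletion, so none can rearrange T cell receptor genes, and anti-CD3 stands in for the missing pre-T cell receptor signal. Organ culture is named in the series design and not in the sample labels. The labels do not say whether thymi were pooled or whether replicates came from separate litters, and the spread that the p-values rest on, that between arrays, may be technical.

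In dividing cells the RNAs of many of these genes accumulate late in the cycle, in G2 and M phase. Chromosomes condense, kinetochores assembled on centromeres capture microtubules of the spindle, the checkpoint holds back the anaphase-promoting complex (APC/C) until all are attached, and separase then splits the sister chromatids. In the thymus, pre-T cell receptor signalling at beta-selection is known for starting a burst of division in cells that leave the double-negative stage. Many late cell-cycle promoters carry a cell cycle genes homology region, called CHR here, which binds the MuvB core of the DREAM and MYB-MuvB complexes, and one or more CCAAT boxes, which bind NF-Y.

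The promoters of the 6 members with the largest rise in DMSO, and of Cenpk, the 1 member that was not called in that comparison, are printed to show these motifs. Each is the stretch from base -140 to base 30 around the RefSeq transcription start (GRCm38.p6), written 5′ to 3′ on the gene's strand, so the last 30 bases are the start of the first exon. Capitals mark the CHR letters TTTGAA and the CCAAT letters on either strand, whose reverse forms read TTCAAA and ATTGG. The stretches lie at chr2:69206184-69206353 (minus strand) for Spc25, chr11:102925095-102925264 (minus strand) for Kif18b, chr11:40733408-40733577 (minus strand) for Hmmr, chr2:127831830-127831999 (minus strand) for Bub1, chr17:71526828-71526997 (minus strand) for Ndc80, chr1:189688057-189688226 (minus strand) for Cenpf and chr13:104228826-104228995 (plus strand) for the second of the 3 RefSeq starts of Cenpk.
Spc25: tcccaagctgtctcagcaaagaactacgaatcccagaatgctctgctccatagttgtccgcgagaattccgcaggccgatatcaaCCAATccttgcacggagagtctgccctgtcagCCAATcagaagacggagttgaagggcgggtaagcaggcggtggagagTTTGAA
Kif18b: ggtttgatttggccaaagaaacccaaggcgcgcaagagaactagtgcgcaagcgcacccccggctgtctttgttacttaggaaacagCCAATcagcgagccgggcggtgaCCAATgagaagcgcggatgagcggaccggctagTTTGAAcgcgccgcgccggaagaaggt
Hmmr: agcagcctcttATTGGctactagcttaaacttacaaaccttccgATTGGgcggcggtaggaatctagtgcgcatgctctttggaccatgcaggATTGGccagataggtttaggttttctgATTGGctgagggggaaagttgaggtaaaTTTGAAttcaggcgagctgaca
Bub1: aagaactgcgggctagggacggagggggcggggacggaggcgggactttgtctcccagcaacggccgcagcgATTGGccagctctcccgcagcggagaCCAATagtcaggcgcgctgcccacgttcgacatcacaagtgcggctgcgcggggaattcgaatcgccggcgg
Ndc80: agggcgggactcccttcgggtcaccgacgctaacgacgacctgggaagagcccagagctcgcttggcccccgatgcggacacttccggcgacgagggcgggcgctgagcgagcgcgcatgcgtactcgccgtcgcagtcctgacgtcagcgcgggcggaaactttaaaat
Cenpf: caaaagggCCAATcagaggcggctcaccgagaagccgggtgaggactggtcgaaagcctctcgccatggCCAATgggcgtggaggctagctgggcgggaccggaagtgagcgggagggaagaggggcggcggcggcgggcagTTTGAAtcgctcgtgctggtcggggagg
Cenpk: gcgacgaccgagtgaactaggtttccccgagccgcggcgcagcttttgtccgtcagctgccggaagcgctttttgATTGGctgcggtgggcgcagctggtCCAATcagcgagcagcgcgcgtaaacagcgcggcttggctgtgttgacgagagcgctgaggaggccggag

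In Spc25, Kif18b, Hmmr and Cenpf the CHR match began at bases 25, 4, 9 and 3 after the start, downstream of 2 or more CCAAT matches. Bub1 had 2 CCAAT matches and no CHR match in its window. In Ndc80 the CHR match began at base 30, the last printed one, and ran on beyond the stretch on the reverse strand, and there was no CCAAT match. None of the 3 Cenpk windows held a CHR match, and the printed one held 2 CCAAT matches.

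Across the 38 measured members with a RefSeq promoter window (300 bases, from 250 before to 50 after the start, any of a gene's windows), 29 held a CHR match. That is 76.3% of these members, against 20.2% of all 27025 genes with a window. CCAAT was found in 29 members (76.3%, against 41.1% of all genes), and both motifs in 1 window in 25 (65.8% against 7.97%). The E2F-type letters GCGGGAA were in 2 members (5.26%, against 5.29%), Ncapg and Cenpk. In Cenpk the match lay at base -18 of a window that is not printed above. Among 18 S phase and replication genes with a window, 2 held a CHR match (11.1%), 13 a CCAAT match (72.2%) and 8 the E2F-type letters (44.4%). Of the members' 41 CHR matches 51.2% lay in the first 50 bases after the start, where 11.2% of such matches lay over all windows. A match is only a run of letters, and no factor's binding was measured.

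**Figure D1:**
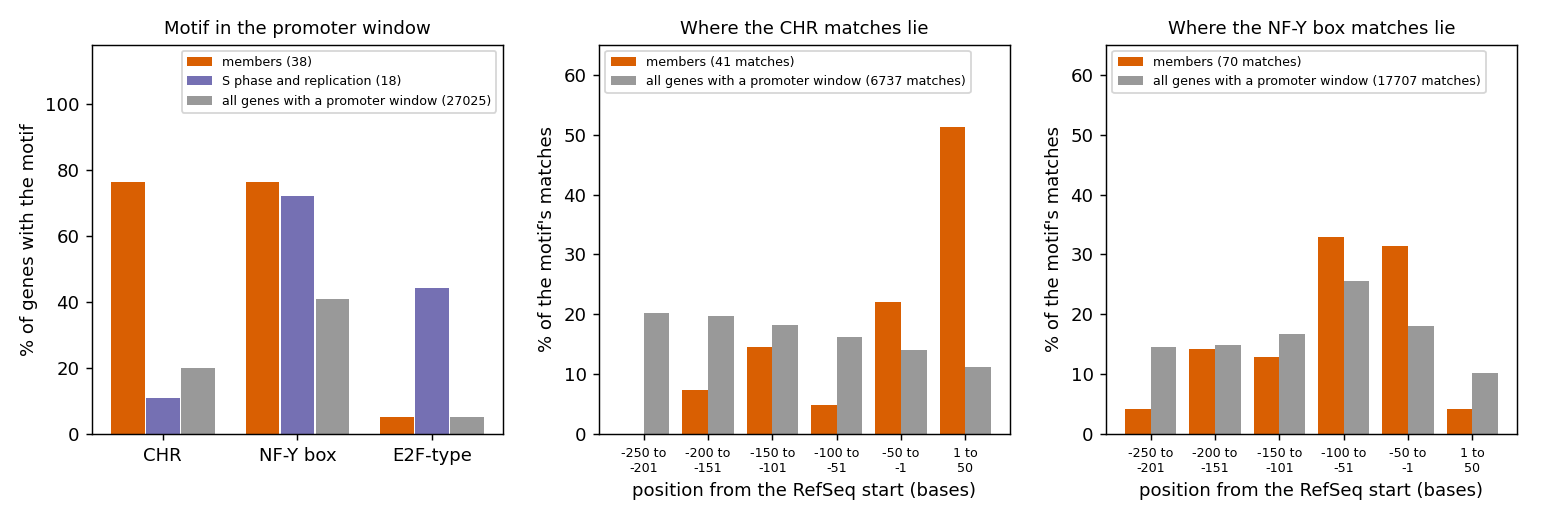
Left, the percentage of genes whose promoter window holds each motif, for measured members, for S phase and replication genes and for all genes with a window (numbers of genes in brackets; the NF-Y box is the CCAAT motif). Middle and right, the percentage of each motif's matches in bins of 50 bases around the RefSeq start, for members and all genes; 51.2% of the members' CHR matches lie in the bin just after the start.

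The arrays resembled each other in overall signal. Median intensity over all probe sets lay between 99.3 and 104, and replicate arrays correlated at 0.997 or 0.998 across genes. Arrays give no counts, so their number limits the precision. All 10 measured T lineage markers stood above the level of the median gene, 7.13 on the log2 scale, in every array, the lowest at 8.32. Their sum was 54195 and 53065 in fresh cells and 47325 and 48324 with DMSO, with 4 called higher (Thy1, Ptprc, Gata3 and Zap70) and 4 lower (Cd3e, Cd3d, Cd3g and Il7r). Markers of other cells were present and moved: the summed intensity of 13 macrophage and dendritic cell markers was 4593 and 7584 in the fresh arrays, 16784 and 17243 with DMSO, and 21451 and 24069 with 79-6. Such a sum is weighted towards the brightest genes. Lyz2, the brightest of these markers with DMSO, also had their largest rise from fresh to DMSO (3.88, log2), beside a list median of 0.64. Of those 13 markers 12 had a positive change from fresh to DMSO. Of the same 13 markers 5 were called higher in DMSO than in fresh cells, and 2 higher in 79-6 than in DMSO. Summed granulocyte and mast cell markers lay between 4071 and 4644 in fresh cells, at 5528 and 5630 with DMSO, and at 6583 and 8546 with 79-6. Within that list the neutrophil collagenase Mmp8 had the largest rises (4.03 from fresh to DMSO and 1.30 with 79-6 against DMSO, log2). Cpa3, the brightest of the list in fresh cells (mean 11.50), fell by 1.61 and then by 1.43. The other mast cell markers, Fcer1a (4.40), Ms4a2 (4.65) and Mcpt4 (5.72), had fresh means below the median gene. Which cells the Cpa3 RNA came from was not tested. Of the 13 markers of that list 6 were called higher and 1 lower in DMSO than in fresh cells. In 79-6 against DMSO 1 was called higher and 3 lower (Cpa3, Mpo and Prtn3), and the median change was 0.01. Over all genes 8.89% were called higher and 10.7% lower in DMSO than in fresh cells, and 2.38% and 1.98% in 79-6 than in DMSO. The 12 thymic epithelial markers went the other way, from 13333 and 13776 in fresh cells to between 3953 and 6052 in the 40 h groups. In bulk RNA, fewer dividing cells and less mitotic RNA per cell cannot be told apart.

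Culture for 40 h with anti-CD3 and DMSO was first set against fresh cells. Of the 47 members 46 rose, and 0 fell, at an adjusted p under 0.05 (limma with Benjamini-Hochberg adjustment over all genes). Over all genes tested 8.89% were called higher and 10.7% lower. Among the 9968 genes brighter than the median gene the shares were 15.5% and 16.3%. In all 47 members both DMSO arrays lay above both fresh arrays, which held for 31.9% of all genes. The median log2 change of the members was 0.67, within a range of 0.28 to 1.20, beside a median of 0.02 over all genes. A 40 h culture, the vehicle and the antibody all separate the groups and cannot be told apart.

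**Figure D2:**
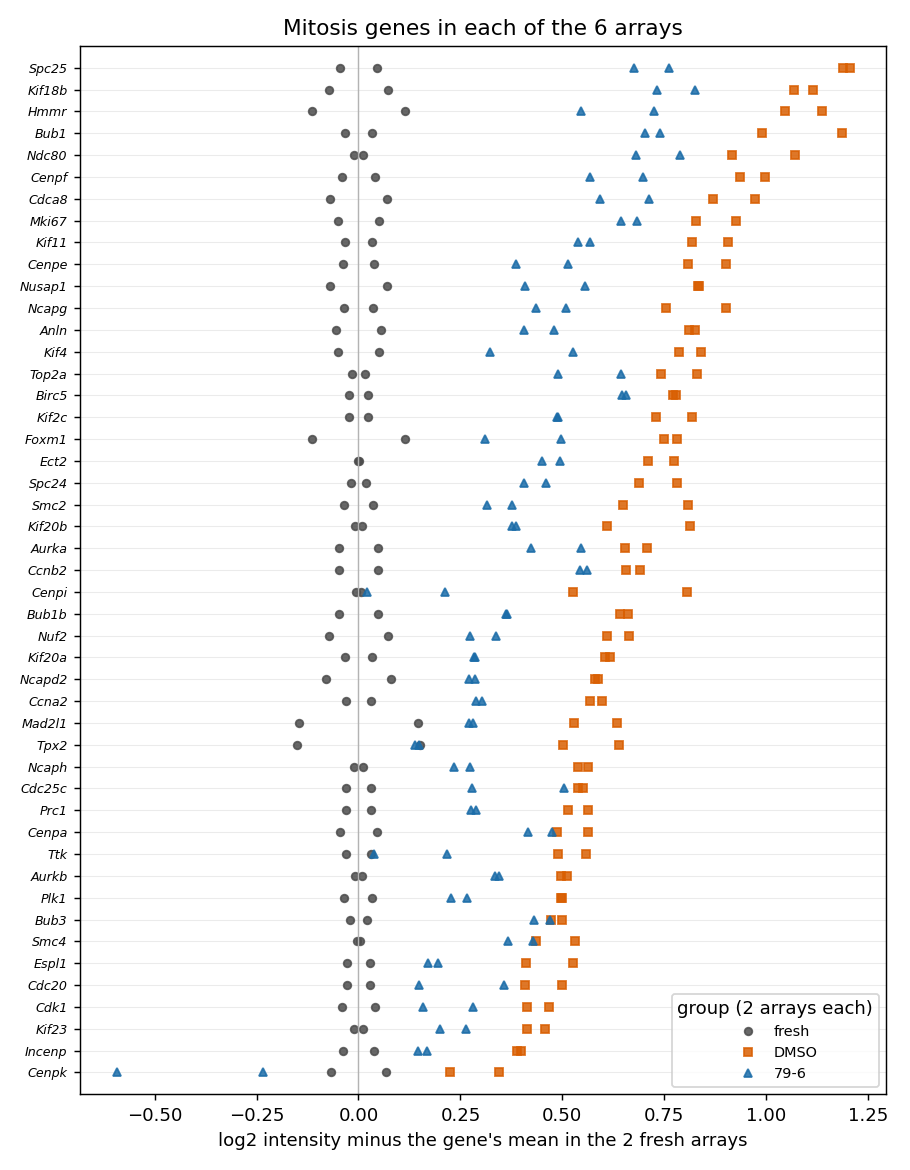
Each row is 1 of the 47 measured members and each point 1 array, as log2 intensity minus that gene's mean in the 2 fresh arrays; genes are ordered by the DMSO change. The DMSO arrays lie to the right of the fresh arrays in every row and to the right of the 79-6 arrays in every row, and Cenpk is the 1 row with both 79-6 arrays left of both fresh arrays.

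The kinetochore genes held the largest rise. Spc25, a subunit of the NDC80 complex that grips the microtubule, read 8.87 and 8.78 in the fresh arrays, 10.01 and 10.03 with DMSO, and 9.58 and 9.50 with 79-6 (log2 intensity, as for all levels here). The 3 groups did not overlap, with fresh lowest and DMSO highest. From fresh to DMSO it rose 2.29-fold (log2 change 1.20 ± 0.07 SE, adjusted p = 7.38e-05 by limma). Its partners in the complex, Ndc80 (0.99), Spc24 (0.74) and Nuf2 (0.64), rose too.

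Among centromere genes, Cenpf, a large protein of the outer kinetochore, read 9.19 and 9.11 in fresh cells, 10.15 and 10.09 with DMSO, and 9.85 and 9.72 with 79-6. Here again DMSO was highest and 79-6 lay between. Cenpf rose by 0.97 ± 0.08 (SE, adjusted p = 0.000258 by limma), followed by the kinesin-like motor Cenpe (0.85), Cenpi (0.67), a subunit of the constitutive centromere network, and Cenpa (0.52), the histone variant that marks the centromere. Cenpk, another subunit of that network, was the exception: it read 8.69 and 8.83 in fresh cells and 9.10 and 8.98 with DMSO. Those arrays do not overlap, but the change of 0.28 ± 0.12 did not pass (adjusted p = 0.175 by limma).

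All 5 checkpoint genes rose. The kinase Bub1, which recruits other checkpoint proteins to the kinetochore, read 10.07 and 10.14 in fresh cells, 11.29 and 11.09 with DMSO, and 10.84 and 10.81 with 79-6. It rose 2.13-fold (1.09 ± 0.09 SE, adjusted p = 0.000223 by limma). Bub1b (0.65) and Mad2l1 (0.58), both part of the inhibitor of the APC/C, the kinase Ttk (0.52) and Bub3 (0.49) rose less.

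The 7 measured kinases, cyclins and their regulators also rose, by 0.44 to 0.68. Aurka, the kinase of the spindle poles, read 9.51 and 9.61 in fresh cells, 10.21 and 10.27 with DMSO, and 10.11 and 9.98 with 79-6. The 79-6 arrays lay nearer to DMSO than to fresh. Its change from fresh to DMSO was 0.68 ± 0.08 (SE, adjusted p = 0.00119 by limma). The cyclins Ccnb2 (0.67) and Ccna2 (0.58) and the phosphatase Cdc25c (0.55), which activates Cdk1, stood close to it. Plk1 (0.50), the APC/C activator Cdc20 (0.45) and Cdk1 itself (0.44) came last in the group.

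In the chromosomal passenger complex, which corrects faulty attachments, Cdca8 (borealin) read 9.54 and 9.40 in fresh cells, 10.44 and 10.34 with DMSO, and 10.18 and 10.06 with 79-6. Its rise was 0.92 ± 0.09 (SE, adjusted p = 0.000473 by limma). The other subunits rose by 0.78 (Birc5, survivin), 0.50 (the kinase Aurkb) and 0.39 (the scaffold Incenp).

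Kinesins rose in 7 of 7 cases. Kif18b, which shortens astral microtubules, read 9.78 and 9.63 in fresh cells, 10.77 and 10.82 with DMSO, and 10.44 and 10.53 with 79-6. The change was 1.09 ± 0.08 (SE, adjusted p = 0.000169 by limma). Kif11 (0.86), the motor that pushes the spindle poles apart, and the chromokinesin Kif4 (0.81) followed, then Kif2c (0.77), a microtubule depolymerase. Kif20b (0.71), Kif20a (0.61) and Kif23 (0.44), motors of the midzone and cytokinesis, rose least.

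Spindle assembly and cytokinesis genes rose in 6 of 6 cases. Hmmr, a spindle-associated protein, read 8.86 and 8.63 in fresh cells, 9.88 and 9.79 with DMSO, and 9.47 and 9.29 with 79-6, a rise of 1.09 ± 0.10 from fresh to DMSO (SE, adjusted p = 0.000493 by limma). Nusap1 (0.83), which bundles spindle microtubules, Anln (0.82), which scaffolds the contractile ring, and Ect2 (0.74), the exchange factor that activates RhoA there, came next. Tpx2 (0.57), the activator of Aurka, and Prc1 (0.54), the bundler of the midzone, followed.

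Chromosome structure genes rose in 7 of 7 cases. The proliferation marker Mki67, which coats mitotic chromosomes, read 12.24 and 12.14 in fresh cells, 13.11 and 13.02 with DMSO, and 12.87 and 12.83 with 79-6. It rose by 0.88 ± 0.08 (SE, adjusted p = 0.000337 by limma). The condensin subunits rose by 0.83 (Ncapg), 0.73 (Smc2), 0.58 (Ncapd2), 0.55 (Ncaph) and 0.48 (Smc4), and the topoisomerase Top2a by 0.79. Foxm1, a transcription factor of late cell-cycle genes, read 9.51 and 9.28 in fresh cells, 10.14 and 10.17 with DMSO, and 9.70 and 9.89 with 79-6. Its rise was 0.77 ± 0.10 (SE, adjusted p = 0.00218 by limma), and that of Espl1, the separase, was 0.47.

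**Figure D3:**
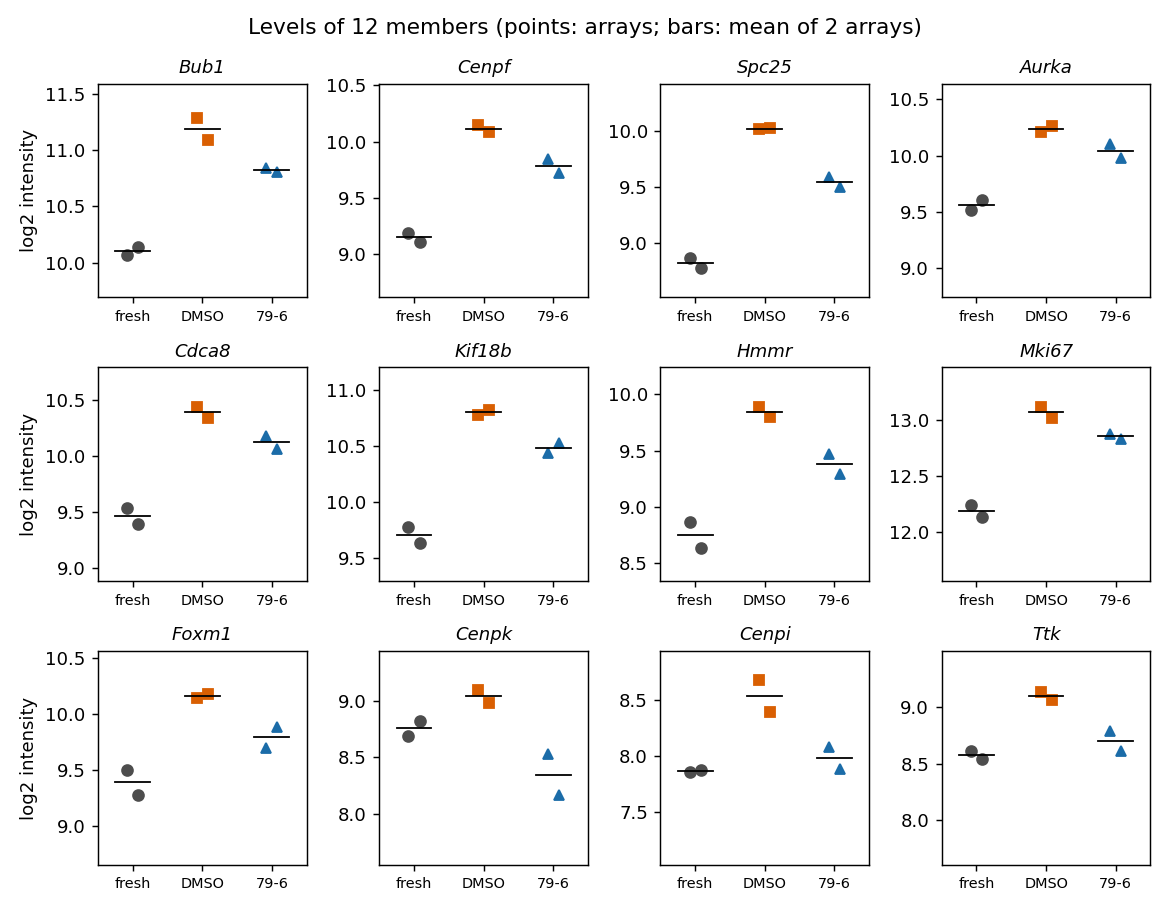
Log2 intensity of 12 members, with 1 point for each array and a bar for the mean of the 2 arrays of a group; every panel spans the same range of log2 values. The first 9 panels show the member with the largest rise in each role group, the last 3 show Cenpk, Cenpi and Ttk, whose 79-6 arrays lie below or close to the fresh arrays.

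Leaving out 1 array gave between 42 and 46 members called. Adding the median macrophage marker level of an array to the limma fit, a step decided on once the data had been seen, left 0 members called and 38 at an unadjusted p under 0.05, with a median change of 0.77. Over all genes that fit called 133, against 3902 without the covariate. That level differs between the groups, and the part of other cells in the result was not tested.

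The 79-6 arrays were then set against the DMSO arrays, which differ from them by the compound. All 47 members were lower with 79-6, and in all 47 both 79-6 arrays lay below both DMSO arrays. Over all genes tested the arrays separated that way in 22.2%, and 44.8% had a negative change. Among the 9968 genes brighter than the median gene, as all members are, 3432 separated that way and 55.9% had a negative change. The differences were small: the median was -0.30, within a range of -0.70 to -0.04, beside a median of 0.02 over all genes and -0.02 over the 9968 genes brighter than the median gene. By limma 7 members fell at an adjusted p under 0.05, which is 14.9% of the members. Of all genes 1.98% were called lower, and of the brighter genes 3.59%. No member was called higher, against 2.38% of all genes. At an unadjusted p under 0.05 there were 40 of 47.

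Cenpk fell furthest. It read 8.53 and 8.17 with 79-6, below the 9.10 and 8.98 of the DMSO arrays and also below both fresh arrays. The change of -0.70 ± 0.12 (SE, adjusted p = 0.0307 by limma) amounts to 1.62-fold. Cenpi, its partner in the centromere network, read 8.08 and 7.88 with 79-6 against 8.67 and 8.39 with DMSO, and 7.86 and 7.87 in fresh cells. It fell by 0.55 ± 0.11 (SE, adjusted p = 0.0437 by limma). Spc25 fell by 0.48 ± 0.07 (SE) and had the lowest adjusted p of the members (0.0203 by limma).

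The other 4 calls, like that of Cenpi, lay close to the threshold. Cenpe read 9.73 and 9.66 in fresh cells, 10.60 and 10.51 with DMSO, and 10.21 and 10.08 with 79-6, a fall of 0.40 ± 0.08 (SE, adjusted p = 0.0420 by limma). Ttk read 8.61 and 8.54, then 9.13 and 9.06, then 8.79 and 8.61 in the same order, and fell by 0.40 ± 0.08 (adjusted p = 0.0495). Anln, at 9.29 and 9.40 in fresh cells and 10.16 and 10.17 with DMSO, read 9.83 and 9.75 with 79-6 and fell by 0.37 ± 0.08 (adjusted p = 0.0427). Kif20a, at 10.36 and 10.29 in fresh cells and 10.94 and 10.93 with DMSO, read 10.61 in both 79-6 arrays and fell by 0.33 ± 0.07 (adjusted p = 0.0477). By role, the calls were 3 of the 5 centromere genes (Cenpk, Cenpi and Cenpe) and 1 of the 4 NDC80 complex genes (Spc25). The others were 1 of the 5 checkpoint genes (Ttk), 1 of the 7 kinesins (Kif20a) and 1 of the 6 spindle assembly and cytokinesis genes (Anln).

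Of the 40 members without a call, Smc2 (-0.38, adjusted p = 0.0502 by limma) was nearest to one, and 29 of the 47 members had an adjusted p under 0.1. At the other end stood Bub3 (-0.04), Cenpa (-0.08), Smc4 (-0.09), Ccnb2 (-0.12), Birc5 (-0.12), Cdc25c (-0.15) and Aurkb (-0.16), with adjusted p between 0.228 and 0.815. By role, the median change was -0.40 for the 5 centromere genes, -0.36 for the 6 of spindle assembly and cytokinesis, -0.32 for the 4 of the NDC80 complex, -0.31 for the 7 kinesins, -0.30 for the 5 checkpoint genes and the 7 of chromosome structure, and -0.20 for the 7 kinases and cyclins and the 4 passenger genes. Whether these groups differ from each other was not tested.

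The sign was the same in all 47 members under each of the 15 alternatives, whereas the count of calls ran from 0 to 32. It was 2 without either fresh array, 0 without DMSO replicate 1, DMSO replicate 2 or 79-6 replicate 2, and 4 without 79-6 replicate 1, by limma, with 33 to 38 members at an unadjusted p under 0.05 in each of these fits. Summed macrophage markers were higher with 79-6 than with DMSO, as given above, summed natural killer and innate lymphoid markers went from 8012 and 8071 with DMSO to 9660 and 9393 with 79-6, and of those 11 markers 5 were called higher and 1, Gzma (-0.51), lower. Summed T lineage markers were 46316 and 48124 with 79-6, and 0 of 10 were called, with 3 at an unadjusted p under 0.05. Over all genes 2.38% were called higher and 1.98% lower in that comparison. The part of cell composition in the result was not tested.

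Set against promoter motifs, the 29 members with a CHR match had a median change of -0.29 with 79-6 (range -0.48 to -0.04) and the 9 without one -0.35 (range -0.70 to -0.12). From fresh to DMSO the medians were 0.73 and 0.67. Calls with 79-6 came from 3 of the 29 and 3 of the 9, the latter being Cenpk, Cenpi and Cenpe. The ranges overlap and no test was made. The other members without a match were Bub1, Mad2l1, Nuf2, Birc5, Nusap1 and Ncaph, and Kif20a had no window in the table.

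The 79-6 arrays were also set against the fresh arrays. Each pair of the 3 comparisons shares a group of arrays, so they are not independent. Of the 47 members 38 were called higher than in fresh cells and 1 lower (limma, adjusted p under 0.05), which is 80.9% and 2.13% of the members. Over all genes 12% were called higher and 13.9% lower. Among the 9968 genes brighter than the median gene the shares were 18.3% and 22.7%. The median log2 difference was 0.40, beside 0.05 over all genes. In 45 members both 79-6 arrays lay above both fresh arrays, as in 36.8% of all genes, and in 46 the 79-6 mean lay between those of fresh and DMSO.

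Kif18b (0.78), Ndc80 (0.74), Bub1 (0.72), Spc25 (0.72), Mki67 (0.66), Cdca8 (0.65) and Birc5 (0.65) stood furthest above fresh cells. The 1 member called lower was Cenpk (-0.41 ± 0.12 SE, adjusted p = 0.0479 by limma). The 8 that were not called were Mad2l1 (0.28), Cdc20 (0.25), Cdk1 (0.22), Espl1 (0.18), Incenp (0.16), Tpx2 (0.14), Ttk (0.13) and Cenpi (0.12). Tpx2 was the member whose arrays overlapped, with 10.28 and 10.29 in 79-6 against 10.30 and 9.99 in fresh cells. Its fresh arrays were, with those of Mad2l1 (11.85 and 11.56), the furthest apart among the members. Without fresh replicate 2 the higher calls numbered 24 (limma). The call of Cenpk was lost when either fresh array, either DMSO array or 79-6 replicate 2 was left out, and with the median macrophage marker level in the fit 0 members were called and 16 had an unadjusted p under 0.05, while over all genes 15 were called, against 5174 without it.

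Other genes of the pathway, from lists drawn up beside the members, gave a wider view. For scale, from fresh to DMSO 8.89% of all genes were called higher and 10.7% lower. Of the genes brighter than the median gene 15.5% were called higher and 16.3% lower. From fresh to DMSO, 16 of 28 further kinetochore and centromere genes rose and 1 fell. They were led by Cenpl (0.86), Knl1 (0.85), the platform that binds the checkpoint kinases, and Ska1 (0.77), and the fall was that of Cenpb. Of 27 further spindle, kinesin and centrosome genes 18 rose, among them the kinase Nek2 (1.09) and Aspm (0.96), a spindle pole protein, and 1 fell. Cytokinesis genes rose in 8 of 12 cases, with Shcbp1 (1.08) and Racgap1 (0.63), a partner of Kif23. Condensin II and other chromosome structure genes rose in 9 of 11, with Top2b (0.80) and Ncapg2 (0.74).

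Cohesin genes rose in 9 of 16 cases, and the largest rises were in Esco2 (1.31), which acetylates cohesin in S phase, and the shugoshins Sgo2a (1.15) and Sgo1 (0.82), which protect it at centromeres. Mitotic entry and exit regulators rose in 12 of 21 cases, with the phosphatase Cdc25b (1.09), Mastl (0.88), the kinase that restrains PP2A in mitosis, and the cyclin Ccnf (0.84). In the APC/C list 4 of 18 rose, among them its inhibitor Fbxo5 (0.98) and its ubiquitin-conjugating enzymes Ube2c (0.56) and Ube2s (0.46). Cell-cycle transcription regulators rose in 10 of 25 cases and fell in 2, and S phase and replication genes rose in 9 of 23, led by the ribonucleotide reductase subunit Rrm2 (0.87). The median changes of these 9 lists ran from 0.06 (APC/C) to 0.50 (spindle), all below the 0.67 of the members. A further list, of 6 measured inhibitors of cyclin-dependent kinases, had a higher median than the members, 0.74.

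With 79-6 against DMSO, S phase and replication genes had the highest share of calls among these lists, with 11 of 23 lower (47.8%, median -0.35). The falls were led by Gins1 (-0.71), part of the replicative helicase, Ccne2 (-0.54), the cyclin of S phase entry, and the origin licensing factor Cdc6 (-0.53). All 23 of the S phase and replication genes had a negative change. Over all genes 1.98% were called lower and 2.38% higher, and over the genes brighter than the median gene 3.59% and 3.86%. Further kinetochore genes fell in 8 of 28 cases, with Cenpp (-0.77), Zwilch (-0.55) and Cenpn (-0.51), and further spindle genes in 6 of 27, with Stil (-0.74), a centriole duplication factor, and Kif24 (-0.67). Cohesin genes fell in 4 of 16, condensin II and related genes in 3 of 11, cytokinesis genes in 2 of 12 and APC/C genes in 1 of 18, Fbxo5 (-0.43). Transcription regulators fell in 7 of 25 cases, among them Mybl1 (-0.67) and the E2F repressor E2f8 (-0.49), and 1 rose. Mitotic entry and exit regulators fell in 4 of 21 cases, with the kinase Wee1 (-0.45), which holds Cdk1 inactive, and Pbk (-0.45), and 1 rose.

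Set against fresh cells, the 79-6 arrays gave other counts from list to list. In S phase and replication 11 of 23 genes were lower than in fresh cells and 2 higher (median -0.25), with Mcm7 (-0.56), a subunit of the replicative helicase, lowest, then Gins1 (-0.54) and Gins2 (-0.53). Further kinetochore genes had 5 higher and 6 lower of 28 (median 0.05), and further spindle genes 7 higher and 3 lower of 27 (median 0.15). Cytokinesis genes had 5 higher and 0 lower of 12, cohesin genes 4 and 0 of 16, condensin II and related genes 4 and 0 of 11, mitotic entry and exit regulators 9 and 3 of 21, APC/C genes 4 and 1 of 18, and transcription regulators 7 and 6 of 25. The members had 38 higher and 1 lower of 47. Over all genes 12% were higher and 13.9% lower, and over the genes brighter than the median gene 18.3% and 22.7%. The shares of the further kinetochore genes, 17.9% and 21.4%, lay near those of the brighter genes. Near the shares of the brighter genes lay also the lower calls of transcription regulators (24%) and the higher calls of APC/C genes (22.2%). The lower calls of mitotic entry and exit regulators (14.3%) lay near the share over all genes. The lower calls of the further spindle genes (11.1%) and APC/C genes (5.56%), and the higher calls of S phase and replication genes (8.7%), were below the share over all genes. The difference between lists was not tested.

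**Figure D4:**
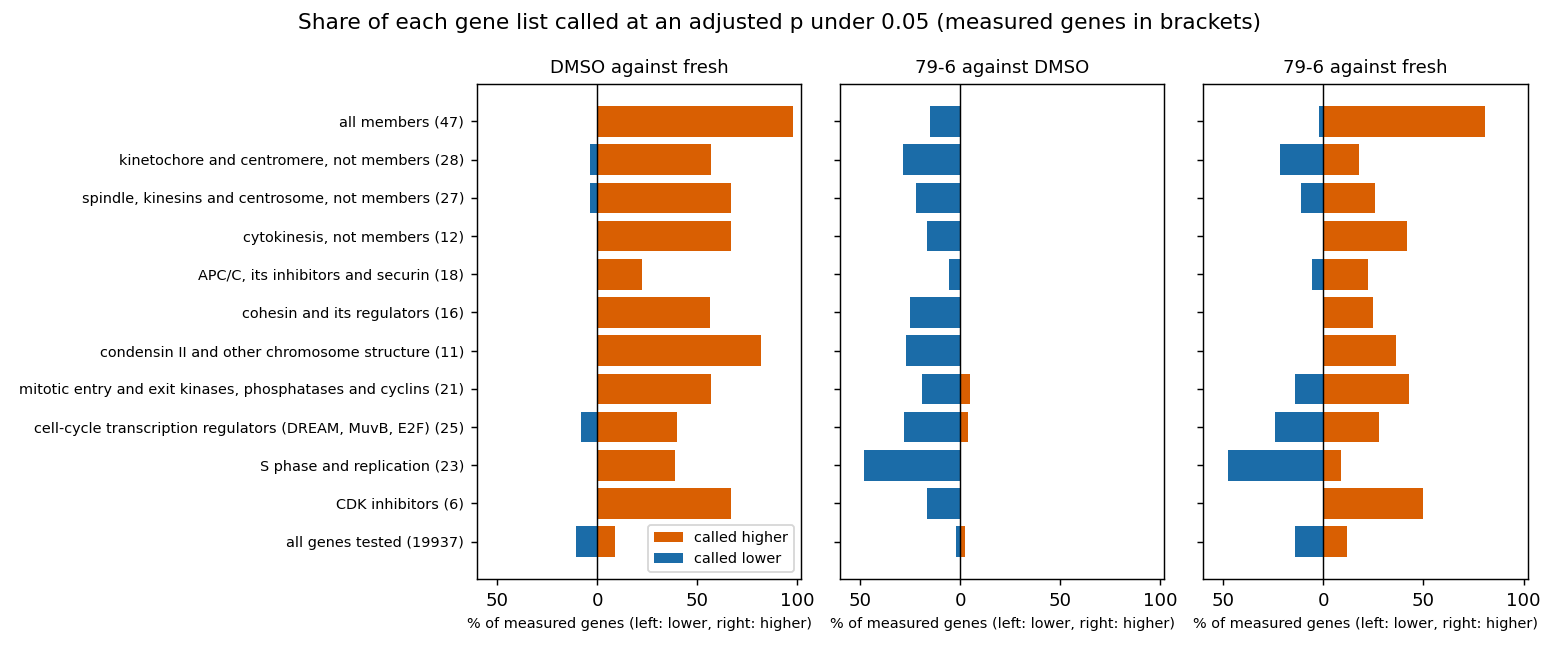
For each gene list (measured genes in brackets), the bar to the right of 0 is the percentage called higher and the bar to the left the percentage called lower, at an adjusted p under 0.05 by limma, in each of the 3 comparisons. The members reach 97.9% higher in DMSO against fresh, and S phase and replication genes 47.8% lower in 79-6 against DMSO.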

How the data were processed

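Each deposited value is an intensity on a linear scale (8.75 to 25316). The authors used RMA and the R package oligo, per the submitters' processing notes, with versions not given in the sources used here. Biotin was the label and total RNA the material of these Affymetrix whole-transcript arrays, per the labels' protocols. Log2 was taken here before every step. Of 34760 probe sets 21640 had 1 gene symbol, 1321 several and 11799 none, and the brightest 1-symbol probe set over the 6 arrays stood for each of 19937 genes. Top2a was the 1 member with more than 1 such probe set.

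A single linear model held all 6 arrays, a mean for each group and no block (limma 3.58.1, R 4.3.3, lmFit and eBayes, two-sided, Benjamini-Hochberg over all genes, threshold 0.05). The fit was also run on simulated data with independent arrays, which cannot address shared litters, technical replicates or cell composition. Errors are limma standard errors. The members and gene lists were chosen with earlier results of these data known, and the role groups, lists and naming rule were then fixed: array values for the member with the largest rise in each role, for members not called in DMSO against fresh and for those called in 79-6 against DMSO, and up to 3 called genes per list. Members named outside that rule, and the motifs, were chosen after their values were seen. Promoters came from a RefSeq table (GRCm38.p6) by symbol, which held 39 of 48 members and not Spc24, Ccna2, Cdc25c, Aurkb, Incenp, Kif20a, Tpx2, Smc4 or Foxm1; motifs were searched on both strands. The letters TTTAAA, the letters GCGCGAA and the letters TATAA were also searched, and were in 21.1%, 5.26% and 10.5% of members against 14.9%, 1.81% and 28.0% of all genes.

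The alternatives were a replicate block, 2 other scalings, a variance trend, a robust prior, the mean over probe sets, a brightness filter, fits of only 2 groups, each array left out in turn and a macrophage covariate.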

Additional observations from a re-analysis of the deposited data

How the results depend on the processing

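All 47 members kept a positive change in DMSO against fresh and a negative one in 79-6 against DMSO under each of the 15 alternatives. The 46 members called in DMSO against fresh ranged from 42 to 46 over the alternatives apart from the covariate. For 79-6 against DMSO the 7 became 23 with arrays set to the same median (median change -0.35), 32 with a variance trend, 30 among genes brighter than the median gene, where fewer genes are tested, 2 in a fit of only these 4 arrays and 0 to 4 when 1 array was left out. For 79-6 against fresh the 38 became 24 to 34 when 1 array was left out. With the median macrophage marker level as a covariate, an alternative added once the data had been seen, limma called 0, 0 and 0 members, with 38, 31 and 16 at an unadjusted p under 0.05, and the median changes were 0.77, -0.27 and 0.56. Calls over all genes went from 3902, 869 and 5174 to 133, 185 and 15 in those fits; the cause was not tested. Whether replicate numbers pair arrays is not known, since deviations of same-numbered arrays correlated at 0.0036, 0.0948 and -0.0740 across genes. With a replicate block the counts were 46, 6 and 34. Cenpk, called lower in 79-6 against fresh, was not called there with either other scaling, with the covariate, in the fit of only the 2 groups, or in any fit with 1 array left out except the one without 79-6 replicate 1. Groups of 2 arrays limit every call.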

Other observations

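Inhibitors of cyclin-dependent kinases were higher beside the mitosis genes in DMSO than in fresh cells. Their median change was 0.74, and 66.7% were called higher, against 8.89% of all genes. Of 6 measured genes 4 rose, led by Cdkn2c (1.82 ± 0.10 SE, adjusted p = 4.26e-05 by limma), Cdkn1b (0.95) and Cdkn2d (0.75). Cdkn1a was listed but not measured. Against fresh cells 3 stayed higher in 79-6 (Cdkn2c 1.69, Cdkn2d 0.96 and Cdkn1b 0.88), where 12% of all genes and 18.3% of the brighter genes were called higher. With 79-6 against DMSO, Cdkn1c fell by 0.48.

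Many genes of the pathway lists had a change opposite to most of their list in at least 1 comparison. From fresh to DMSO, 10 of 23 S phase and replication genes and 8 of 18 APC/C genes had a negative change. Examples with a called change follow. Cdk5rap2, a centrosome protein, fell by 1.24 from fresh to DMSO (adjusted p = 0.000107 by limma) and was 1.33 lower in 79-6 than in fresh cells on the log2 scale. Cdc14b, a phosphatase, rose by 0.59 with 79-6 against DMSO (adjusted p = 0.0213). Foxo1, a transcription factor of quiescence and lymphocyte homing, rose by 1.42 from fresh to DMSO and by a further 0.95 with 79-6 (adjusted p = 0.00213 by limma).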
